A study of Mus musculus with 24 samples.

Results

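The question was whether the presence of dermal fibroblasts altered what IL-1β did to chondrocyte mRNA at 72 h. It was addressed with the 12 of 24 libraries taken at that time, chosen by culture, treatment and time and not by any measured value. All libraries came from wild-type mouse primary chondrocytes in the lower chamber of transwells, where a porous membrane lets soluble factors pass between chambers while the cell populations stay apart. The 4 groups, with 3 libraries each, were untreated normal culture (chondrocytes alone), normal culture with IL-1β, untreated co-culture (chondrocytes with primary dermal fibroblasts), and co-culture with IL-1β. IL-1β was used at 10 ng/ml and was added 24 h after attachment. The other 12 libraries were the same 4 groups at 36 h, and they serve here as libraries that the 72 h values did not use. The labels name the medium of each cell type on its own (DMEM/F12 with ITS for chondrocytes, alpha-MEM for fibroblasts, both with serum) and not that of the co-culture, so medium and fibroblasts cannot be told apart. Whether the 3 replicates were separate cultures or animals is not stated either. The p-values thus reflect only how far these samples differ within a group, possibly for technical reasons.

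IL-1β is an inflammatory cytokine that signals through NF-κB and MAP kinases and drives chondrocytes to make cytokines and matrix-degrading enzymes while lowering cartilage matrix genes. Chondrocytes live in poorly oxygenated tissue, depend largely on glycolysis and use the hypoxia-inducible factors HIF-1α and HIF-2α. In oxygen these factors are hydroxylated by the Egln prolyl hydroxylases and degraded. Without oxygen, and also under inflammatory signals, they accumulate and raise genes for glucose uptake, glycolysis, lactate export and their own hydroxylases.

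Values are FPKM, fragments scaled to transcript length and to the mapped total, so levels can be compared between genes. The interaction is the IL-1β response in co-culture minus that in normal culture, both as differences of mean log2(FPKM + 1). A negative value means a smaller rise, or a larger fall, in co-culture. Every p comes from limma on 11788 genes with at least 1 FPKM in at least 3 of the 12 libraries, and a gene passed at a Benjamini-Hochberg adjusted p under 0.05.

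The IL-1β response differed between co-culture and normal culture for 14 genes. The interaction was negative for 11 genes, 0.0933% of those tested, and positive for 3, 0.0254%. Those with a negative value include the lactate exporter Slc16a3, the glucose transporter Slc2a1 and the HIF-induced hydroxylase Egln3, which rose less in co-culture. The 11 were Egln3, Ndufa4l2, Nxph4, Stc2, Slc16a3, Slc2a1, Pfkl, Pgm2, Gpi1, Blvrb and Itprip, and the 3 were Mme, Slc1a3 and Prg4. IL-1β moved each of the 14 in the same direction in both cultures, and the response was smaller in co-culture for every one but Prg4. Over all tested genes the response was smaller in co-culture for 69.5%, and the share with the same direction in both cultures is not given here. The adjusted p-values of the 14 lay between 0.0294 and 0.0499, close to the threshold.

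The number of calls depended strongly on single libraries. The sign of the 14 estimates did not, but it is not separate evidence. Genes chosen for a small p in these libraries could hardly change sign when 1 library was left out. Without normal culture with IL-1β replicate 1, 20 genes passed, and without replicate 2 of that group 129 passed, in both cases with all 14 among them. Leaving out co-culture with IL-1β replicate 3 gave 8 calls, of which 6 were among the 14, and leaving out untreated co-culture replicate 2 gave 4, of which 3 were. Leaving out any 1 of the other 8 libraries (normal IL-1β replicate 3, untreated co-culture replicates 1 and 3, co-culture IL-1β replicates 1 and 2, and each untreated normal library) gave 0 limma calls, with 1193 to 1812 genes at an unadjusted p under 0.05. A fit on all 24 libraries, which shares 1 estimate of spread, called 380 genes and included all 14. A replicate block in the treated libraries, added after seeing the data because same-numbered treated libraries of both cultures deviated together, called 585 genes (4.96%), all 14 included. With that block Ldha, Bnip3, Car9, Egln1, Nfkb2, Hif1a, Gapdh, Jun, Hapln1, Lif, Mest, Mt1, Mt2, Cxcl12, Fosl1, Hmox1, Saa3, Epas1 and Kif11, given below as not passing, also passed (adjusted p from 0.0101 for Ldha to 0.0468 for Kif11). In the lists described below, that block called 9 of 24 hypoxia genes and 15 of 20 glycolysis genes with a negative value. Positive calls were 2 hypoxia genes, 2 of 26 DNA replication genes and 2 of 25 mitosis genes. Of 28 immediate early and ERK feedback genes 6 were called, all negative. Of 25 NRF2, glutathione and metallothionein genes 6 were negative and 1 positive, and of 20 cytokine and chemokine genes 2 and 1. Over all 11788 tested genes, 226 were negative and 359 positive. The groups were unequally variable: the residual SD of log2(FPKM + 1) was 0.168 in normal culture with IL-1β, 0.119 in co-culture with IL-1β, 0.0932 in untreated normal culture and 0.0865 in untreated co-culture.

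FPKM sums per library were 438824 to 443681 in untreated normal culture and 446867 to 455479 in untreated co-culture. With IL-1β they were 465482 to 506621 in normal culture and 464626 to 504696 in co-culture. The sums thus differed with treatment and, without IL-1β, with culture. The lowest correlation within a group was 0.989. The chondrocyte genes Col2a1, Col11a1 and Comp were present in every group, and Col2a1 had a mean of 765 FPKM in untreated normal culture. Other chondrocyte markers were lower. In normal culture without and with IL-1β, mean FPKM was 26.4 and 7.98 for Sox9 and 18.6 and 1.48 for Acan. It was 15.1 and 2.06 for Col9a1, 14.8 and 3.64 for Hapln1, and 1.80 and 0.32 for Matn3. Summed markers of dermal fibroblasts were not higher in co-culture: they ranged from 969.3 to 1064 FPKM in untreated normal culture and 874 to 929 in untreated co-culture, and from 688 to 715 and 634 to 693 with IL-1β. All 15 were above 0, with Ly6a, Prrx1 and Thy1 the most abundant, so these markers do not separate the chondrocytes from fibroblasts. Summed skeletal muscle markers, 14 genes, were 45.9 to 53.8 FPKM in untreated normal culture, 63.2 to 73.9 in untreated co-culture, 97.6 to 112 in normal culture with IL-1β and 114 to 149.8 in co-culture with IL-1β. They moved with both culture and IL-1β, and their part in the results below was not tested. Myeloid marker sums were 104 to 115 FPKM without and 156 to 184 with IL-1β in both cultures, keratinocyte sums 38.6 to 49.6 without and 10.3 to 11.7 with it, and endothelial sums 4.39 to 5.82 throughout. In bulk RNA, fewer cells of a type and less RNA per cell cannot be told apart.

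Egln3 had the largest interaction of the genes that passed. It encodes the prolyl hydroxylase PHD3, which marks HIF for degradation and is itself induced by HIF. Its level was 2.69, 3.72 and 3.41 FPKM in untreated normal culture, 49.5, 38.2 and 38.5 in normal culture with IL-1β, 8.02, 6.71 and 9.53 in untreated co-culture, and 41.1, 38.6 and 38.6 in co-culture with IL-1β. The untreated co-cultures were all above the untreated normal cultures, while the IL-1β-treated libraries of both cultures overlapped. The log2 rise was 3.33 without fibroblasts and 2.16 with them, an interaction of -1.17 ± 0.17 (SE, adjusted p = 0.0455). In the difference between the cultures, Egln3 was higher by 1.08 without IL-1β (adjusted p = 0.00281) and differed by -0.08 with it (adjusted p = 0.762).

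**Figure D1:**
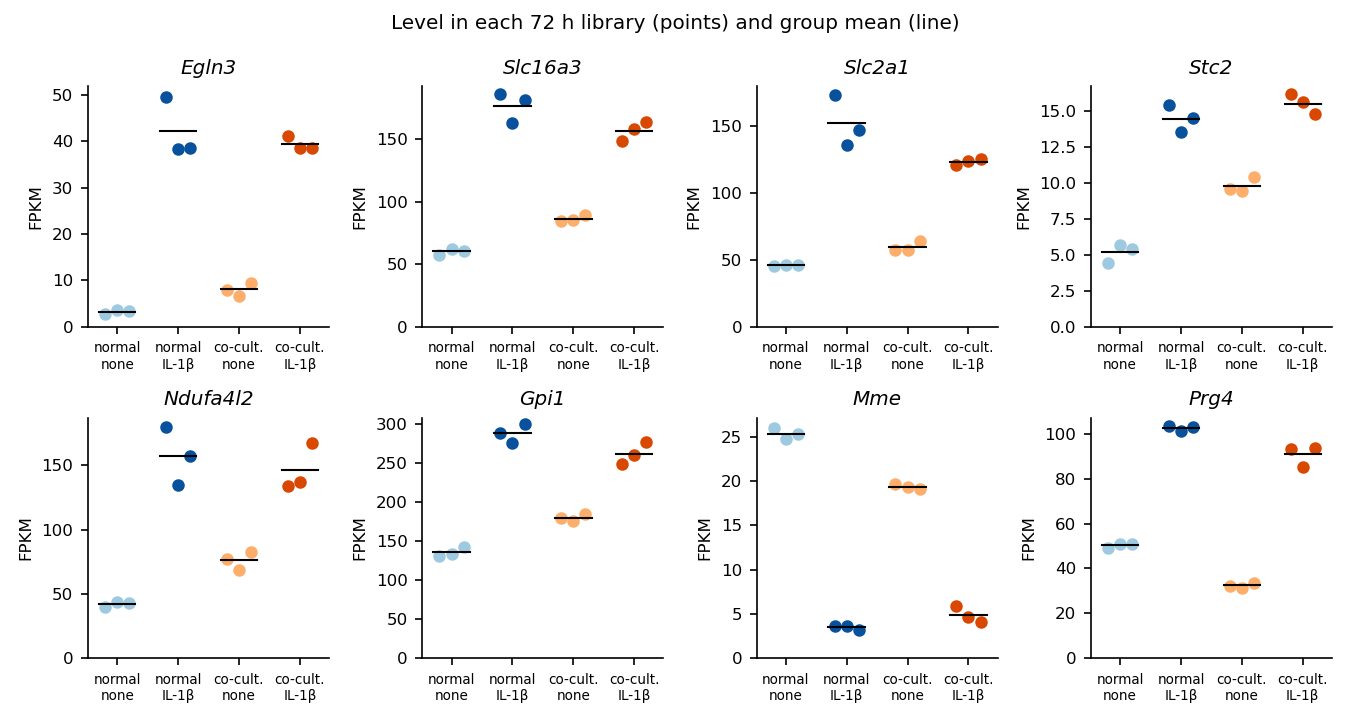
FPKM (vertical axes, each from 0) of 8 genes with an interaction in the 12 libraries of 72 h, by group; points are libraries and lines are means of 3. In the first 6 panels the untreated co-cultures lie above the untreated normal cultures. The IL-1β-treated groups lie closer together in these panels except for Slc2a1 (means 152 and 123 FPKM, co-culture lower, against 45.9 and 59.8 untreated). Egln3 rose by 3.33 without and 2.16 with fibroblasts, while Mme fell and Prg4 rose.

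A similar arrangement was seen for Slc16a3, and in part for Slc2a1, the genes that move lactate and sugar. Slc16a3 encodes the lactate exporter MCT4 and had the smallest p. Its level was 57.6, 62.6 and 60.9 FPKM in untreated normal culture, 186, 163 and 182 with IL-1β, 84.7, 85.4 and 89.9 in untreated co-culture, and 149, 158 and 164 in co-culture with IL-1β. Untreated cultures did not overlap and treated ones overlapped narrowly. The interaction was -0.69 ± 0.09 (SE, adjusted p = 0.0294), from rises of 1.54 and 0.85. Slc2a1, the glucose transporter GLUT1, was at 45.3, 46.0 and 46.5 FPKM in untreated normal culture, 174, 135.9 and 147 with IL-1β, 57.3, 57.8 and 64.5 in untreated co-culture, and 121, 124 and 125 in co-culture with IL-1β. Here neither the untreated nor the treated libraries overlapped, and they differed in opposite directions: co-culture was above normal culture without IL-1β and below it with IL-1β. The interaction was -0.67 ± 0.11 (SE, adjusted p = 0.0461), and the difference between cultures passed neither without IL-1β (0.37, adjusted p = 0.0628) nor with it (-0.29, adjusted p = 0.0614, or 0.0174 with the replicate block in the treated libraries).

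Within glycolysis itself, Pfkl, the liver-type phosphofructokinase of the committed step, had an interaction of -0.58 ± 0.08 (SE, adjusted p = 0.0455). It stood at 49.0, 52.3 and 53.4 FPKM in untreated normal culture, 116, 105 and 115 with IL-1β, 71.1, 67.1 and 74.1 in untreated co-culture, and 98.4, 101 and 107 in co-culture with IL-1β. Gpi1, glucose-6-phosphate isomerase, was at 131, 133 and 143 FPKM in untreated normal culture, 289, 277 and 301 with IL-1β, 179, 176 and 185 in untreated co-culture, and 249.8, 261 and 277 in co-culture with IL-1β. For both enzymes the untreated groups were apart, co-culture higher, and the treated groups overlapped. Gpi1 rose by 1.08 in normal culture and by 0.54 in co-culture. The symbol Pgm2 stands here for ENSMUSG00000025791 on chromosome 4, whereas the RefSeq promoters list that symbol on another chromosome. This Pgm2, a phosphoglucomutase that links glucose-1-phosphate and glucose-6-phosphate, was outside the glycolysis list and gave -0.57 ± 0.10 (SE, adjusted p = 0.0499). Its untreated range was 48.2 to 52.4 FPKM in normal culture and 65.9 to 72.5 in co-culture, and its treated ranges, 126 to 149.6 and 119 to 128, overlapped.

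2 further HIF-regulated genes passed. Stc2, the secreted glycoprotein stanniocalcin 2, was at 4.45, 5.70 and 5.43 FPKM in untreated normal culture, 15.4, 13.5 and 14.5 with IL-1β, 9.58, 9.41 and 10.4 in untreated co-culture, and 16.1, 15.6 and 14.8 in co-culture with IL-1β. Only the untreated groups were apart, and the interaction was -0.71 ± 0.11 (SE, adjusted p = 0.0461). Ndufa4l2, a mitochondrial protein induced by HIF that lowers complex I activity, was at 40.0, 43.5 and 43.2 FPKM in untreated normal culture, 180.1, 135 and 157 with IL-1β, 77.1, 68.4 and 82.6 in untreated co-culture, and 134, 137 and 167 in co-culture with IL-1β. Its treated libraries overlapped and its untreated ones did not, and the interaction was -0.93 ± 0.15 (SE, adjusted p = 0.0461).

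The remaining genes with a negative interaction were Nxph4, Blvrb and Itprip. Nxph4, a secreted neurexophilin whose gene lies close to Ndufa4l2 on chromosome 10, ranged from 6.40 to 6.91 FPKM in untreated normal culture, 15.6 to 19.8 with IL-1β, 8.73 to 10.5 in untreated co-culture and 14.0 to 15.0 in co-culture with IL-1β. Blvrb, biliverdin reductase B, ranged from 19.1 to 20.1, 46.4 to 51.8, 22.8 to 24.3 and 40.4 to 45.0 FPKM in the same order. Both were higher in co-culture without IL-1β and lower with it, with no overlap in either case, and gave interactions of -0.71 ± 0.12 and -0.48 ± 0.08 (SE). Itprip, which encodes a protein that binds the inositol trisphosphate receptor, differed in another way. Its untreated libraries overlapped (13.5 to 15.4 FPKM in normal culture, 14.5 to 14.7 in co-culture), and with IL-1β it was at 35.0, 34.7 and 34.0 in normal culture against 25.0, 25.7 and 25.4 in co-culture. It was thus the treated cultures that were apart, by -0.43 (adjusted p = 0.00842), and the interaction was -0.43 ± 0.07 (SE, adjusted p = 0.0486).

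Of the 14 genes, 7 were higher in untreated co-culture than in untreated normal culture by their own test (Egln3, Stc2, Ndufa4l2, Slc16a3, Pgm2, Pfkl and Gpi1), where 0.195% of all genes were, and 1 (Prg4) was lower, where 0.110% were. With IL-1β, 1 of the 14 was higher in co-culture (Slc1a3, against 1.02% of all genes) and 1 lower (Itprip, against 1.10%). With the replicate block in the treated libraries these were 2 higher (Slc1a3 and Mme, against 9.89% of all genes) and 7 lower (Itprip, Slc2a1, Slc16a3, Gpi1, Nxph4, Blvrb and Prg4, against 6.46%). The untreated libraries enter both this difference and the interaction, so these counts are not separate evidence. In the fits without 1 of the 12 libraries, the untreated difference of Egln3, Stc2 and Prg4 passed every time. Without untreated co-culture replicate 3 that of Slc16a3, Ndufa4l2, Pfkl, Gpi1 and Pgm2 was lost, and without replicate 1 that of all of these but Slc16a3. Gpi1 was also lost without untreated normal replicate 1 or 2, and Pgm2 without any untreated normal library. Slc1a3 passed in 6 of the 12 such fits, lost without untreated normal replicate 3, any untreated co-culture, or replicate 1 or 2 of co-culture with IL-1β, and the latter pair also decided Itprip.

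All 14 are protein-coding genes, and on GRCm38 the 4 whose promoters are given next lie as follows. On the minus strand are Egln3 (ENSMUSG00000035105, chromosome 12, 54178981 to 54203860) and Stc2 (ENSMUSG00000020303, chromosome 11, 31357307 to 31370074). On the plus strand are Slc2a1 (ENSMUSG00000028645, chromosome 4, 119108711 to 119137983) and Slc16a3 (ENSMUSG00000025161, chromosome 11, 120948480 to 120960868). HIF binds DNA at hypoxia response elements, whose core is ACGTG or GCGTG, and the promoters are shown because these 4 genes moved together and are known HIF targets. Each is 300 bases from RefSeq on GRCm38.p6, read 5′ to 3′ on the gene's strand, with 250 bases before the annotated start and 50 after it. Capitals mark every match to ACGTG or GCGTG on either strand (CACGT or CACGC on the other), and the ACGTG matches include those inside the E-box CACGTG.
Egln3, chr12:54203825-54204124, minus strand: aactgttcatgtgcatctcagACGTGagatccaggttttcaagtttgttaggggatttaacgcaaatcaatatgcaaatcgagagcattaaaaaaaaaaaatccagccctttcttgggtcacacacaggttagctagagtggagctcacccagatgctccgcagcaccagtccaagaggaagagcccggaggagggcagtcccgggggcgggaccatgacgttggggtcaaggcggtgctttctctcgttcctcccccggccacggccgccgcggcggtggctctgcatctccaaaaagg
Stc2, chr11:31370012-31370311, minus strand: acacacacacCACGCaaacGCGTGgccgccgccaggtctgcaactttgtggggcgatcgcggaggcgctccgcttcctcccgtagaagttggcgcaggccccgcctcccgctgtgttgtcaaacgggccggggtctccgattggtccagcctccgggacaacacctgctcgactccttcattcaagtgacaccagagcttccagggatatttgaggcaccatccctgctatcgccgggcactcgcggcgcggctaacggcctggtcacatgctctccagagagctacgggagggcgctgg
Slc2a1, chr4:119108495-119108794, plus strand: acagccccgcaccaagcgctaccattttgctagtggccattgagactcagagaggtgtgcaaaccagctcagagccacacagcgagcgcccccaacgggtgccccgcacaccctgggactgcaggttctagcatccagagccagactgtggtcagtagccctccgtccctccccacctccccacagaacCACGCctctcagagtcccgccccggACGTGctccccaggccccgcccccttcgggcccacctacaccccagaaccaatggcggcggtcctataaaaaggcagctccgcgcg
Slc16a3, chr11:120948817-120949116, plus strand: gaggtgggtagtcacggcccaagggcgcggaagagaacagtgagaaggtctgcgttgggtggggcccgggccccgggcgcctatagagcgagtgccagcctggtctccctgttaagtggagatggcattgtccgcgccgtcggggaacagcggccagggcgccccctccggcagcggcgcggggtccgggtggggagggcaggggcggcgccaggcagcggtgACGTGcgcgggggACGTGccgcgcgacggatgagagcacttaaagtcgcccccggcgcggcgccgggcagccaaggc

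Egln3 held 1 match and the other genes 2 each. Those of Slc16a3 began 27 and 14 bases before the RefSeq start and those of Slc2a1 61 and 36 bases before it, while the matches of Egln3 and Stc2 lay near the far end of the window. The Slc16a3 window begins at 120948817, inside the gene span given above, which begins at 120948480. Of all 32851 RefSeq mouse promoters of this length, 43.8% held at least 1 match. Taken by gene and on the chromosome of the gene's Ensembl entry, a match was present in 18 of 19 matched members of the hypoxia list and 16 of 19 of the glycolysis list. It was present in 6 of 8 of the genes with a negative interaction and 2 of 2 with a positive one. Among the 9316 tested genes that could be matched it was present in 68.7%. Ndufa4l2, Nxph4, Pgm2 and Prg4 were unmatched. A match describes these letters only and is not a binding site.

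The wider hypoxia and glycolysis lists showed the same direction, mostly below the threshold of the adjusted test. Of 24 tested hypoxia and HIF target genes, 3 passed (Egln3, Stc2 and Slc2a1), all negative. The estimate was below 0 for 21, against 44.2% of all tested genes, and 14 had a negative interaction at an unadjusted p under 0.05, against 6.08% of all genes, while 1 had a positive one, against 8.54%. Their median interaction was -0.41, against 0.02 over all genes. All 20 glycolysis and lactate genes had estimates below 0. Among them 4 passed (Slc16a3, Slc2a1, Pfkl and Gpi1), 17 reached an unadjusted p under 0.05, and the median was -0.48. The lists share Slc2a1 and together held 43 genes, of which 6 passed and 40 were below 0. All of these counts include the genes that passed. The lists were also chosen with earlier results of these data known, so the counts are not separate evidence.

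Both arms of the interaction can be read off the list medians. IL-1β raised 22 of the 24 hypoxia genes in normal culture, where it raised 20.7% of all genes, and 19 in co-culture, where it raised 16.1%, with medians of 1.41 and 0.90. It raised 19 of 20 glycolysis genes in each culture, with medians of 0.89 and 0.52. Between untreated cultures the medians were 0.29 and 0.35, co-culture higher, and between treated cultures -0.14 for both lists. By library, the mean level of the hypoxia list was 4.32, 4.31 and 4.33 on the log2 scale in untreated normal culture, 5.90, 5.52 and 5.58 with IL-1β, 4.60, 4.54 and 4.72 in untreated co-culture, and 5.58, 5.52 and 5.56 in co-culture with IL-1β. Untreated co-cultures were all above untreated normal cultures, and the treated libraries differed mainly through replicate 1 of normal culture with IL-1β. Without that library the counts at an unadjusted p under 0.05 were again 14 and 17.

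**Figure D2:**
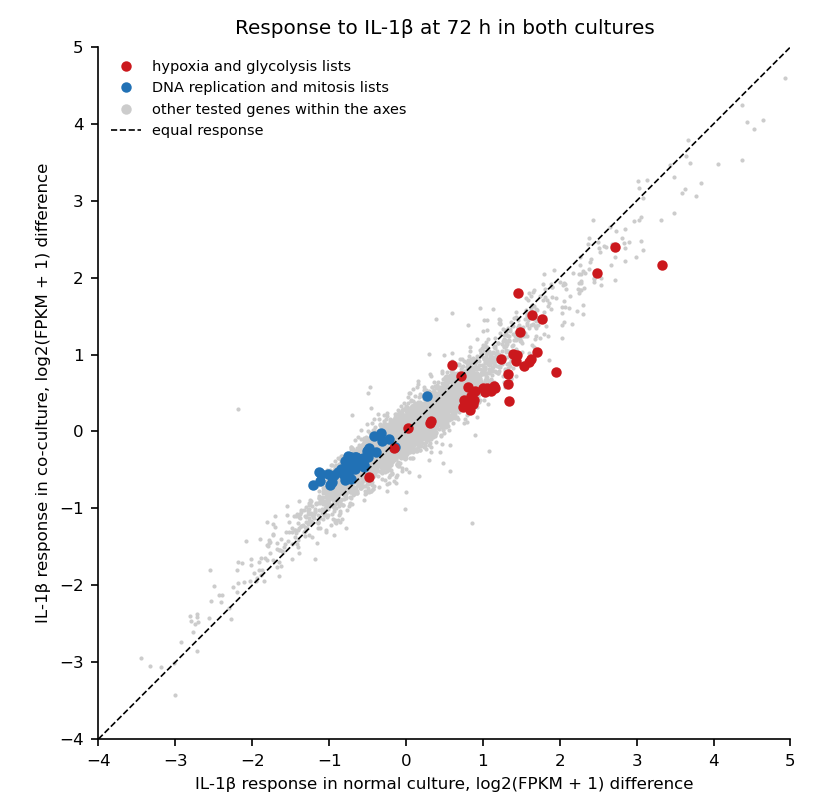
IL-1β response at 72 h in normal culture (horizontal) and in co-culture (vertical), both as differences of log2(FPKM + 1), 1 point per tested gene; 14 genes lie outside the axes and the dashed line marks equal responses. The hypoxia and glycolysis genes lie mostly to the right of the origin and below the line (medians 1.10 and 0.58), and the DNA replication and mitosis genes mostly to the left of it and above the line (medians -0.72 and -0.43).

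Members below the threshold followed the same arrangement. Car9, the cell-surface carbonic anhydrase IX that exports acid, was at 8.42, 8.41 and 8.86 FPKM in untreated normal culture, 45.9, 30.5 and 33.6 with IL-1β, 18.8, 14.0 and 23.1 in untreated co-culture, and 32.4, 29.4 and 34.5 in co-culture with IL-1β. Untreated co-cultures were above every untreated normal culture and the treated ones overlapped. Its interaction, -1.18 ± 0.22 (SE), was as large as that of Egln3 and did not pass (adjusted p = 0.0862). Bnip3, a mitophagy receptor induced by HIF, gave -0.68 (adjusted p = 0.122), and Egln1, the main HIF prolyl hydroxylase, -0.58 (adjusted p = 0.122). Ldha, the lactate dehydrogenase subunit that makes lactate, gave -0.45 (adjusted p = 0.13), with untreated ranges of 887 to 942 FPKM in normal culture and 1124 to 1175 in co-culture. Gapdh, often used as a reference gene, gave -0.40 (adjusted p = 0.213).

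Not every list member moved this way. Slc16a1, the lactate transporter MCT1, had rises of 0.72 in both cultures and an interaction of -0.00 ± 0.07 (SE). Adm, the vasodilator peptide adrenomedullin, rose by 1.64 and 1.52, and Vegfa, the vascular growth factor, by 1.77 and 1.46 (interactions -0.12 and -0.32, adjusted p = 0.651 and 0.295). The genes of the factors themselves had positive estimates: Hif1a 0.28 ± 0.13 (SE, adjusted p = 0.343) and Epas1, which encodes HIF-2α, 0.34 ± 0.10 (SE, adjusted p = 0.181). Epas1 ranged from 3.13 to 3.39 FPKM in untreated normal culture and 2.51 to 2.72 in untreated co-culture, the opposite order to that of the target genes, and from 9.62 to 11.65 and 11.23 to 11.97 with IL-1β.

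**Figure D3:**
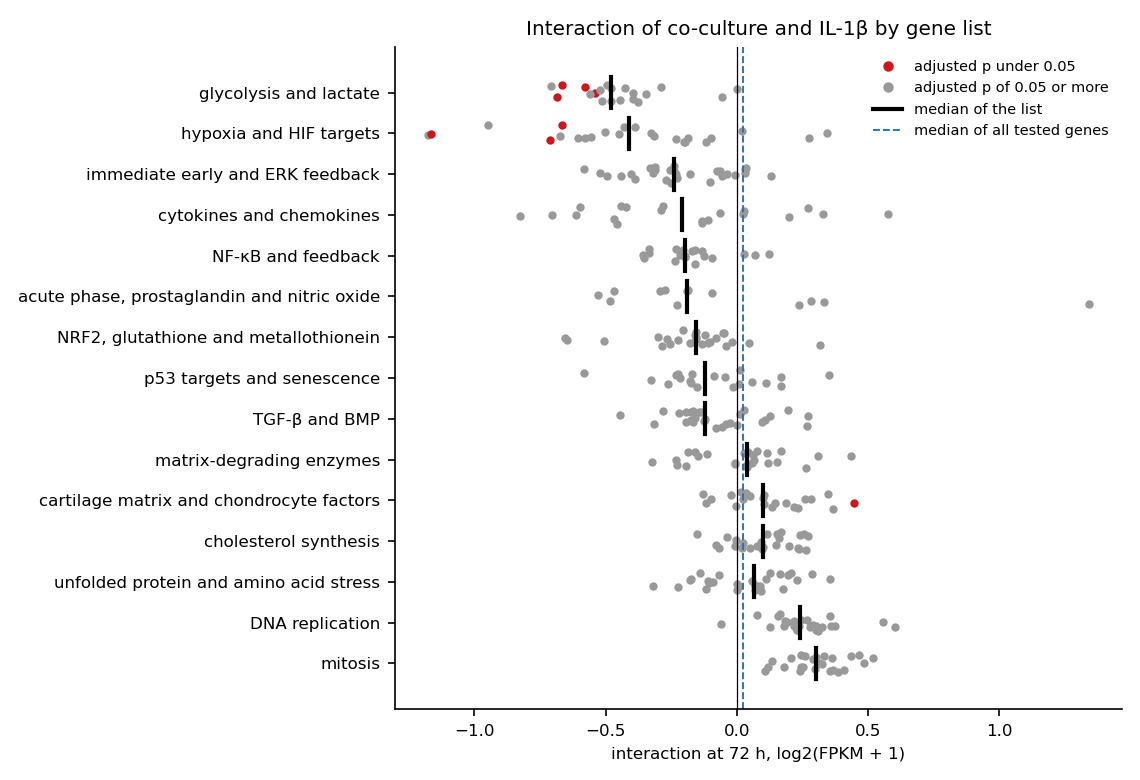
Interaction at 72 h on the log2(FPKM + 1) scale (horizontal) for each tested member of 15 gene lists, 1 point per gene with red for an adjusted p under 0.05; thick bars are list medians and the dashed line is the median of all genes, 0.02. Glycolysis (median -0.48) and hypoxia genes (-0.41) lie furthest to the left and mitosis genes (0.30) furthest to the right.

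3 genes had a positive interaction. Mme encodes neprilysin, a membrane peptidase that cleaves signalling peptides. It was at 26.0, 24.7 and 25.3 FPKM in untreated normal culture, 3.66, 3.65 and 3.19 with IL-1β, 19.7, 19.3 and 19.1 in untreated co-culture, and 5.95, 4.64 and 4.10 in co-culture with IL-1β. No groups overlapped, and co-culture was lower without IL-1β and higher with it. The fall was 2.55 in normal culture and 1.80 in co-culture, which gave 0.75 ± 0.13 (SE, adjusted p = 0.0499). Slc1a3, the glutamate and aspartate transporter GLAST, fell by 1.55 and 0.96. It ranged from 18.9 to 21.4 FPKM in untreated normal culture, 5.84 to 6.60 with IL-1β, 16.2 to 17.4 in untreated co-culture and 7.73 to 8.84 in co-culture with IL-1β, again with no overlap, and gave 0.58 ± 0.10 (SE, adjusted p = 0.0461).

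Prg4 was the gene of the 14 whose response was larger in co-culture. It encodes lubricin, the boundary lubricant of the cartilage surface. Its level was 49.3, 51.1 and 51.0 FPKM in untreated normal culture, 104, 101 and 103 with IL-1β, 32.4, 31.4 and 33.4 in untreated co-culture, and 93.3, 85.1 and 93.8 in co-culture with IL-1β. Co-culture was below normal culture with and without IL-1β, with no overlap, and the gap was wider on the log2 scale without it. The rise was 1.01 in normal culture and 1.46 in co-culture, an interaction of 0.45 ± 0.07 (SE, adjusted p = 0.0461).

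For the main cartilage genes no interaction was found at 72 h. Col2a1, type II collagen, fell by 1.93 in normal culture and 1.91 in co-culture, Acan, aggrecan, by 3.01 in both, and Sox9, their transcription factor, by 1.63 and 1.74. Their interactions were 0.03 ± 0.09, -0.00 ± 0.22 and -0.12 ± 0.16 (SE). Col2a1 was at 188, 203 and 209 FPKM in normal culture with IL-1β and 222, 205 and 194 in co-culture with IL-1β, which overlapped. Of 24 tested cartilage genes, IL-1β lowered 19 in each culture, against 37.1% of all genes in normal culture and 25.6% in co-culture. Prg4 alone of the 24 passed in the interaction, 5 estimates were below 0, and 3 (12.5%, against 8.54% of all genes) reached an unadjusted p under 0.05, all positive: Prg4, Hapln1 (0.37, the link protein of aggrecan) and Col9a1 (0.26, a type IX collagen chain). At 36 h the limma interaction passed for Col2a1 (-0.24, adjusted p = 0.00739) and Acan (-0.29, adjusted p = 0.0242) and not for Sox9 (-0.04, adjusted p = 0.71). The change between the times passed for neither Col2a1 nor Acan (adjusted p = 0.231 and 0.606).

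Estimates for cell cycle genes were nearly all positive, meaning a smaller fall in co-culture, and none passed. Of 26 DNA replication genes, 25 had an estimate above 0, against 55.8% of all genes, and 7 reached an unadjusted p under 0.05 with limma, against 8.54%, with a median of 0.24. All 25 mitosis genes were above 0 and 9 reached it, with a median of 0.30. IL-1β lowered 23 and 24 of them in normal culture and 21 and 22 in co-culture, with medians of -0.66 and -0.75 against -0.44 and -0.43, where it lowered 37.1% and 25.6% of all genes. Kif11, a spindle kinesin, was at 26.5, 30.5 and 28.1 FPKM in untreated normal culture, 9.86, 14.3 and 11.3 with IL-1β, 26.6, 28.9 and 27.1 in untreated co-culture, and 18.4, 17.5 and 14.4 in co-culture with IL-1β. Untreated libraries overlapped and treated ones narrowly did not (14.3 against 14.4 FPKM), the reverse of Egln3, Stc2 and Car9 but not of Slc2a1. Its interaction was 0.52 ± 0.16 (SE, adjusted p = 0.213).

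The cell cycle values rested in part on replicate 1 of normal culture with IL-1β. The mean level of the DNA replication list was 3.82 in that library and 4.27 and 4.30 in the others of its group, against 4.41, 4.44 and 4.44 in co-culture with IL-1β, and for mitosis it was 4.19 against 4.73 and 4.66. The same library had the highest mean level of the hypoxia, glycolysis, immediate early and cytokine lists in its group. Without it, 3 DNA replication and 8 mitosis genes reached an unadjusted p under 0.05, and without replicate 3 of that group 15 and 16 did. Leaving out untreated normal replicate 2, untreated co-culture replicate 3 or co-culture with IL-1β replicate 2 gave 2 DNA replication genes, and leaving out normal culture with IL-1β replicate 2 gave 17 mitosis genes. The count for DNA replication also moved by over 1.5 times without untreated normal replicate 3, untreated co-culture replicate 1 or co-culture with IL-1β replicate 1, within the range of 2 to 15. It was 4 with no filter or with median-of-ratios scaling, 11 after TPM rescaling or with all 24 libraries, and 15 with the replicate block in the treated libraries. The last 2 settings gave 15 mitosis genes each.

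**Figure D4:**
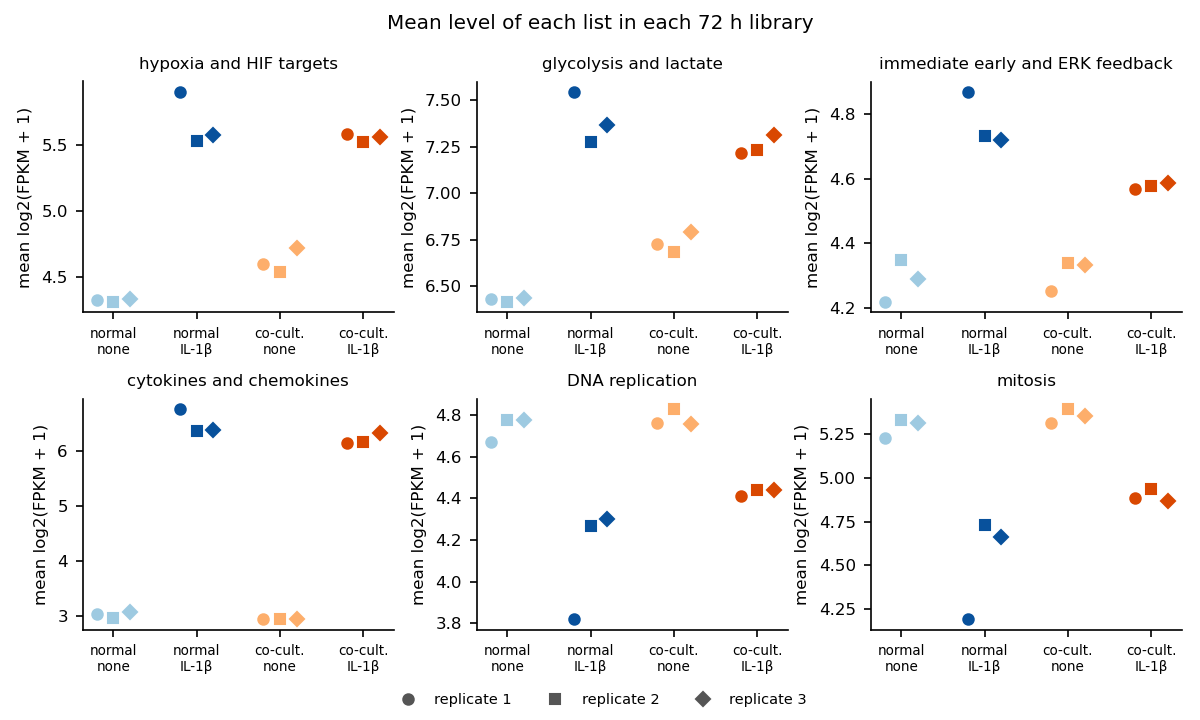
Mean log2(FPKM + 1) of the tested members of 6 lists (vertical axes, not from 0) in each 72 h library, by group, with the replicate number as the marker shape. Hypoxia and glycolysis means are higher in the untreated co-cultures than in the untreated normal cultures (4.54 to 4.72 against 4.31 to 4.33 for hypoxia), and replicate 1 of normal culture with IL-1β stands apart in all 6 panels, at 3.82 for DNA replication.

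The inflammatory genes that IL-1β induces rose in both cultures, and their interactions were small beside those rises. Of 20 cytokine and chemokine genes, 18 rose in normal culture and 19 in co-culture, with medians of 3.71 and 3.50, where 20.7% and 16.1% of all genes rose, and none passed in the interaction. At an unadjusted p under 0.05 with limma, 8 were negative, against 6.08% of all genes, and 1 positive, against 8.54%, with a median of -0.21. Without replicate 1 of co-culture with IL-1β the 8 became 5. Il6 rose by 7.03 and 7.05. Lif, an IL-6 family cytokine, was at 4.09, 4.52 and 4.48 FPKM in untreated normal culture, 169, 123 and 114 with IL-1β, 4.76, 5.25 and 4.55 in untreated co-culture, and 96.2, 95.8 and 95.1 in co-culture with IL-1β. The treated groups were apart and the untreated ones overlapped, and the interaction was -0.60 ± 0.15 (SE, adjusted p = 0.162). Il11, another cytokine of that family, gave -0.83 (adjusted p = 0.265), and the stromal chemokine gene Cxcl12, which IL-1β lowers, gave 0.27 (adjusted p = 0.175).

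Saa3, an acute phase serum amyloid, had the largest positive estimate of the listed genes, 1.34 ± 0.32 (SE, adjusted p = 0.135). It was at 2.34, 4.49 and 7.03 FPKM in untreated normal culture and 1.03, 0.76 and 0.86 in untreated co-culture, and at 8104, 6431 and 7781 with IL-1β in normal culture and 6166, 6152 and 7857 in co-culture. Treated libraries overlapped, and untreated co-cultures were all below untreated normal cultures. The value therefore rests on levels near the pseudocount of 1. The protease genes Mmp3 and Mmp13 gave 0.43 ± 0.26 and -0.32 ± 0.23 (SE), neither of which passed.

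Transcription factors and feedback genes of the MAP kinase and NF-κB pathways had mostly negative estimates. Of 28 immediate early and ERK feedback genes, 24 were below 0, against 44.2% of all genes, 15 reached an unadjusted p under 0.05 in that direction, against 6.08%, and none passed, with a median of -0.24. Jun, a subunit of AP-1, was at 41.2, 47.0 and 43.1 FPKM in untreated normal culture, 88.0, 73.3 and 78.8 with IL-1β, 48.6, 51.4 and 51.0 in untreated co-culture, and 65.7, 66.3 and 70.2 in co-culture with IL-1β. Neither pair overlapped, and co-culture was higher without and lower with IL-1β, for an interaction of -0.44 ± 0.10 (SE, adjusted p = 0.123). Fosl1, another AP-1 subunit, gave -0.52 (adjusted p = 0.132). Of 20 NF-κB and feedback genes, 17 were below 0 and 6 reached an unadjusted p under 0.05, against the same 44.2% and 6.08%, and none passed. Nfkb2 gave -0.36 (adjusted p = 0.105).

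Of 25 NRF2, glutathione and metallothionein genes, which protect against oxidants and metals, 23 were below 0, against 44.2% of all genes, and none passed. At an unadjusted p under 0.05 with limma 6 were negative, against 6.08%, and 1 positive, against 8.54%. The metallothionein genes Mt1 and Mt2 gave -0.66 and -0.65 (adjusted p = 0.177 and 0.147). Hmox1, heme oxygenase 1, gave -0.51 (adjusted p = 0.183). Mt2 ranged from 66.3 to 76.5 FPKM in untreated normal culture, 81.0 to 104 in untreated co-culture, 701 to 889.6 in normal culture with IL-1β and 627 to 777 in co-culture with IL-1β. The untreated groups did not overlap and the treated groups did. Mest, an imprinted gene that IL-1β lowers steeply, gave 0.85 ± 0.25 (SE, adjusted p = 0.193).

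Genes chosen only by their IL-1β response at 36 h in normal culture, at an adjusted p under 0.05 and a change of at least 1 on the log2 scale, gave a view from libraries that the 72 h values did not use. Of 442 genes raised at 36 h, 341 (77.1%, against 44.2% of all tested genes) had a negative estimate at 72 h and the median was -0.14. At an unadjusted p under 0.05, 26.2% were negative and 1.58% positive, against 6.08% and 8.54% of all tested genes. In each direction 1 gene passed. Of 457 genes lowered at 36 h, 64 (14.0%, against the same 44.2%) had a negative estimate and the median was 0.21. At an unadjusted p under 0.05, 29.8% of them were positive and 1.09% negative, against 8.54% and 6.08%, with 1 pass, positive. In both sets the median response at 72 h was closer to 0 in co-culture: the medians were 0.98 in normal culture and 0.84 in co-culture for the raised genes, and -0.80 and -0.55 for the lowered genes. By gene, the response was smaller in co-culture for 77.6% of the raised and 86.7% of the lowered genes, against 69.5% of all tested genes.

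The 36 h libraries gave a second reading of the interaction in separate libraries. There, 601 genes had a negative and 1163 a positive interaction (5.10% and 9.87%). Of the 14 genes called at 72 h, 13 had the same sign at 36 h, and 10 of these also passed at 36 h. Over all tested genes, 4847 estimates were below 0 at 36 h and 6941 above it. The share of all genes with the same sign at both times is not given here. Egln3 gave -1.11 at 36 h against -1.17 at 72 h, and Stc2 -0.78 against -0.71. Ndufa4l2 gave -0.44, Slc2a1 -0.35, Gpi1 -0.27 and Mme 0.39, all smaller in size than at 72 h. A negative value at 36 h was not always a smaller rise. In co-culture IL-1β then lowered Egln3 by 0.16, Stc2 by 0.60 and Ndufa4l2 by 0.23. In normal culture it raised them by 0.95, 0.18 and 0.21. Slc2a1 and Gpi1 rose by 0.34 and 0.29 in normal culture and changed by -0.01 and 0.02 in co-culture. Slc16a3 and Pfkl, at -0.14 and -0.07 (adjusted p = 0.22 and 0.402), and Blvrb, at -0.09 (adjusted p = 0.585), did not pass at 36 h.

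**Figure D5:**
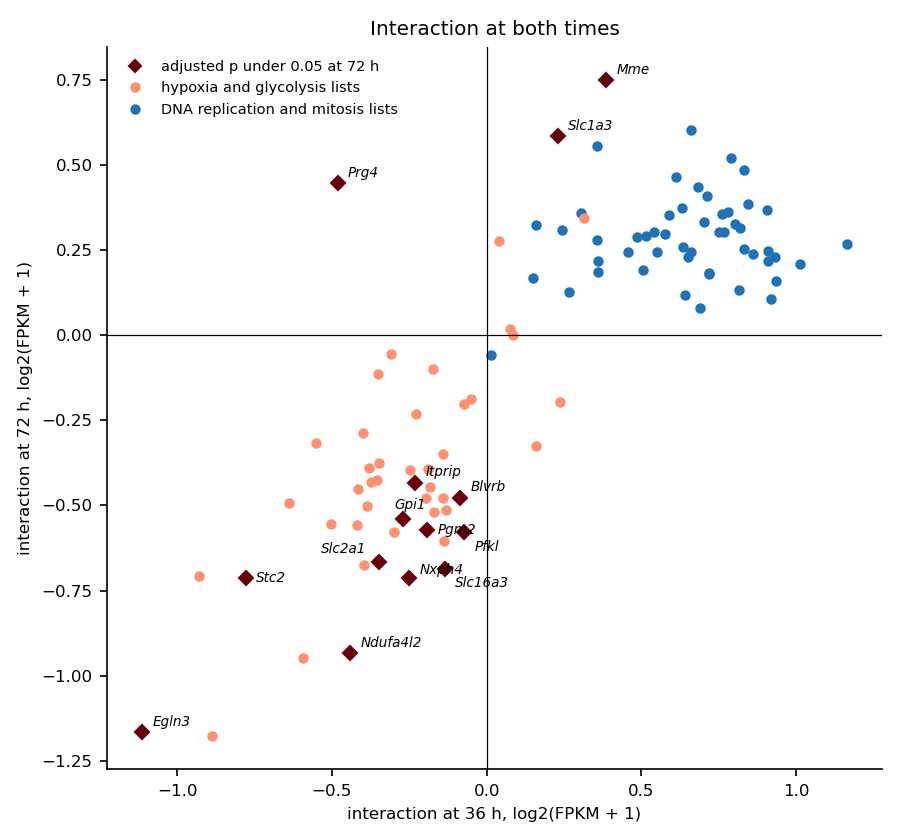
Interaction at 36 h (horizontal) and at 72 h (vertical), both on the log2(FPKM + 1) scale and from separate libraries, for the 14 genes with an adjusted p under 0.05 at 72 h (labelled diamonds) and the hypoxia, glycolysis, DNA replication and mitosis lists. Egln3 lies at -1.11 and -1.17, Prg4 has opposite signs, and the cell cycle genes lie further from 0 at 36 h (median 0.68) than at 72 h (0.28).

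By list, the medians at 36 h were -0.35 for hypoxia and -0.22 for glycolysis, with 15 and 16 genes negative at an unadjusted p under 0.05, against 10.3% of all genes. For DNA replication and mitosis they were 0.54 and 0.75, with 23 and 25 genes positive, against 19.4%. The IL-1β response of the glycolysis genes in normal culture had a median of 0.007 at 36 h against 0.89 at 72 h. For the hypoxia genes the median was 0.18 at 36 h against 1.41 at 72 h. Egln3 was above that median, with a rise of 0.95 in normal culture at 36 h (adjusted p = 2.04e-11). Its means at 36 h were 16.7 FPKM without and 33.2 with IL-1β in normal culture, and 56.9 without and 50.7 with IL-1β in co-culture. Untreated co-culture exceeded untreated normal culture at both times, by 1.71 at 36 h and 1.08 at 72 h on the log2 scale.

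The change of the interaction between the times was tested directly in all 24 libraries, and 82 genes passed, 0.696% of those tested. Of the 14, these were Prg4, Slc16a3 and Pfkl. Prg4 had an interaction of -0.48 at 36 h, where its rise was smaller in co-culture, and 0.45 at 72 h (difference 0.93 ± 0.10, SE, adjusted p = 4.59e-05). For Slc16a3 and Pfkl the interaction was more negative at 72 h by -0.55 and -0.51 (adjusted p = 0.0222 and 0.0162). In the fits without 1 of the 24 libraries Prg4 and Pfkl passed throughout, and Slc16a3 passed in 19, with an adjusted p of at most 0.0563 (lost without untreated normal replicate 1, untreated co-culture replicate 3 or co-culture with IL-1β replicate 1 of 36 h, or untreated co-culture replicate 3 or co-culture with IL-1β replicate 1 of 72 h). Of the 82, 42 were more positive and 40 more negative at 72 h. These became 292 and 420 without replicate 1 of normal culture with IL-1β at 72 h, 108 and 94 without its replicate 2, and 140 and 141 without replicate 3 of co-culture with IL-1β at 72 h. At least 1 of the counts fell to between 23 and 27 without untreated normal replicate 1, normal IL-1β replicate 1, any untreated co-culture, or co-culture with IL-1β replicate 1 or 3 of 36 h, and without untreated normal replicate 3, untreated co-culture replicate 3, or co-culture with IL-1β replicate 1 or 2 of 72 h.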

How the data were processed

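Poly(A)-enriched mRNA was sequenced in 24 libraries of mouse chondrocytes, of which 12 (72 h) carry the interaction. The authors deposited 1 FPKM value per gene and library, 17094 genes with 2 decimals, on build GRCm38 per the submitters' processing notes. Aligner, counting tool, annotation and filters are not given in the sources used here. Read counts were not analysed here, so depth is unknown and no counting interval is given.

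Genes with at least 1 FPKM in at least 3 of the 12 libraries were tested on log2(FPKM + 1) with limma 3.58.1 in R 4.3.3 (trended prior, 1 mean per group, 8 residual degrees of freedom, Benjamini-Hochberg adjustment over 11788 genes). Fold changes on this scale understate those of low genes. The 36 h libraries were fitted alike, and the change between times on all 24 with 16 residual degrees of freedom. The test of the 72 h interaction was run on simulated data. Unlike the libraries here, these had independent errors and, for each gene, the same spread in every group. Alternatives were a pseudocount of 0.1, no filter, a filter at 5 FPKM, rescaling to TPM (sum 1e+06), median-of-ratios scaling, all 24 libraries, a replicate block, weights per library and leaving out each library. Leaving out 1 replicate number of every group, and list counts under each alternative, were added after seeing the data. So was a replicate block in the treated libraries: deviations from the group mean of same-numbered treated libraries of both cultures correlated at 0.37, 0.19 and 0.59, while in every other pair of groups at least 1 of the 3 correlations was not over 0.1. The labels do not say what a number marks, so this pairing comes from the data. Gene positions are from GENCODE vM21 and promoters from RefSeq. Plots used matplotlib 3.10.9 under Python 3.11.

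The comparison, the 31 gene lists (640 genes, 16 not in the table) and the tests were chosen with earlier results of these data known. The naming rule took 12 core genes, up to 8 called genes in each direction with a mean of at least 5 FPKM in a group, up to 4 called members of each list or its 2 most abundant ones, and abundant markers of other cell types. Other genes given with values were chosen after their values were seen.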

Additional observations from a re-analysis of the deposited data

Results flagged for a closer look

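The interaction differed between 36 h and 72 h for 5 of the named genes, by the direct test over all 24 libraries (limma, Benjamini-Hochberg adjusted). Prg4, the lubricin gene, changed sign: the difference, 72 h minus 36 h, was 0.93 (adjusted p = 4.59e-05). Ptgs2, which encodes cyclooxygenase 2, had an interaction of -2.27 at 36 h and -0.48 at 72 h, a difference of 1.79 (adjusted p = 0.0116). Its untreated means at 36 h were 20.5 FPKM in normal culture and 95.7 in co-culture, and its treated means 554 and 515. At 72 h its untreated libraries overlapped (43.5 to 54.1 FPKM in normal culture, 46.0 to 52.4 in co-culture). Ccn2, a matricellular target of TGF-β and YAP, had -0.78 at 36 h and -0.17 at 72 h, a difference of 0.61 (adjusted p = 0.0126). Slc16a3 (difference -0.55, adjusted p = 0.0222) and Pfkl (difference -0.51, adjusted p = 0.0162) had a more negative interaction at 72 h. Of all tested genes, 0.696% passed this test.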

How the results depend on the processing

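The 14 interactions kept their sign under every alternative run, which their selection for a small p in these libraries made likely. Their calls were not kept under every alternative. Against 3 positive and 11 negative genes, the counts were 0 and 0 with no filter (16949 genes tested, 2042 at an unadjusted limma p under 0.05), 1 and 5 after TPM rescaling, 206 and 174 with all 24 libraries, and 124 and 114 with weights per library. They stayed within 1.5 times with a pseudocount of 0.1 (2 and 13), a filter at 5 FPKM (3 and 11) and median-of-ratios scaling (2 and 12). Leaving out 1 library, or 1 replicate number of every group, gave 0 to 64 positive and 0 to 65 negative genes. With the replicate block they were 5 and 17, all 14 included. Of 18 correlations between same-numbered libraries, 10 were over 0.1 (range -0.11 to 0.59), and the treated cultures were the 1 pair of groups in which all 3 were. A replicate block in the treated libraries gave 359 and 226, all 14 included, and moved the genes higher and lower in co-culture with IL-1β from 120 and 130 to 1166 and 761. TPM moved the median of all interactions from 0.02 to 0.06 and median-of-ratios scaling to 0.00. For the hypoxia list, 11 to 17 genes stayed negative at an unadjusted p under 0.05, and for glycolysis 15 to 18. The change between times gave 25 to 292 more positive and 23 to 420 more negative genes without single libraries, and 70 more negative ones under median-of-ratios scaling against 40. The cause was not tested. FPKM carries no depth, so low genes such as Saa3 in untreated cells have unknown counting error.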
